A study of Mus musculus with 4 samples.

Results

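The regions described here are 487 stretches of chromatin that were open in all 4 libraries of the experiment and carried much more signal in RAW264.7 cells labelled CuNZ@Gel than in those labelled Gel. They are the shared peak regions whose mean deposited log2 value was at least 1.5 higher in CuNZ@Gel than in Gel. They were found by merging the peak lists of the 4 libraries, with a gap of at most 1 base, into 80929 regions, keeping the 32082 with a peak in every library, and applying that difference, and 1.52% of the shared regions met it. Only 36 shared regions lay at -1.5 or below. The regions were chosen by the deposited log2 values of all 4 libraries, so the size of the difference is given below as a description with no test.

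RAW264.7 is a mouse macrophage-like line. The CuNZ@Gel group and the Gel group each had 2 libraries, from cells kept for 48 h after treatment at 1000000 cells per well, and the series title speaks of a nanozyme hydrogel for diabetic wounds. The groups follow the sample titles; the treatment text, which is the same for every sample, names CuNZ@Gel alone, so what the Gel cells received is not settled by the labels. The labels do not say whether the replicates were separate cultures, so the spread between replicates may be technical.

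ATAC-seq uses a transposase that inserts sequencing adapters where DNA is not wrapped tightly on nucleosomes, so the number of reads in a region measures how accessible that stretch is. Accessible regions are mostly promoters and distal elements such as enhancers, where transcription factors bind, and in macrophages many distal elements open or close when the cells are stimulated. A region is named below by its nearest gene, as the authors' tables give it; nearness does not show that the region controls the gene. Coordinates are in build GRCm39.

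Sequences of the regions themselves were not used here, because the reference tables are in build GRCm38.p6. The promoters of 3 genes of cytokine signalling that had such a region as neighbour are shown instead, since inflammation is the theme of the study's title. Each is the 250 bases before the gene's start, 5′ to 3′ on the gene's strand, from RefSeq in build GRCm38.p6; capitals mark the motifs found. The Tnfaip3 promoter lies at chr10:19015411-19015660, the Il7r promoter at chr15:9529877-9530126 and the Il6ra promoter at chr3:89913197-89913446, all on the minus strand. Whether any of the regions covers one of these promoters cannot be read across builds.
Tnfaip3 promoter: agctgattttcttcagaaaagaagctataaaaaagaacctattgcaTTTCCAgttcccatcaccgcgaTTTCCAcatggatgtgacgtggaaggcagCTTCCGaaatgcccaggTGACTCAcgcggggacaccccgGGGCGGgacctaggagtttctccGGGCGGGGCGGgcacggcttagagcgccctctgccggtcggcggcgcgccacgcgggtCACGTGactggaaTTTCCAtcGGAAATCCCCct
Il7r promoter: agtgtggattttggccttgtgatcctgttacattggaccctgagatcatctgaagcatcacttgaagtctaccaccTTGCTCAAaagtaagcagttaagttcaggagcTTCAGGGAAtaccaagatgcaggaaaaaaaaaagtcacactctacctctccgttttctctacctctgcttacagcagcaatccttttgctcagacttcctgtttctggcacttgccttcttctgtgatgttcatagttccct
Il6ra promoter: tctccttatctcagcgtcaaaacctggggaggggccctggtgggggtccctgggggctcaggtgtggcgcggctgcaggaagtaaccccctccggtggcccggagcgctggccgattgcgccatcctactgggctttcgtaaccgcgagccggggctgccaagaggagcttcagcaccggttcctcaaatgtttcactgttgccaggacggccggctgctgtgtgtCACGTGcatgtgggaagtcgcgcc

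The Tnfaip3 promoter held an AP-1 site (TGANTCA) that began at base -136, an NF-kB site (GGG, 2 free bases and TTTCC, here on the other strand) at -12, an E-box (CACGTG) at -33, GC boxes (GGGCGG) at -114, -91 and -86, an ETS core (CGGAAG) at -153 and NFAT cores (TGGAAA) at -204, -182 and -20. The GC boxes at -91 and -86 overlap. The Il7r promoter held a C/EBP half-type site (TTGCNNAA) at -174 and a STAT site (TTCNNNGAA) at -142. The Il6ra promoter held an E-box at -24. Both strands were searched, and a match describes letters, not binding.

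Of the 472 genes nearest to the 487 regions, 63.8% had a promoter in the table, as did 12465 of the 17496 genes nearest to any shared region, among 27025 promoters in all. The GC box stood in 34.9% of the promoters of genes near the gaining regions, against 47.1% for genes near any shared region and 32.9% of all promoters. The ETS core, a motif common in promoters of housekeeping genes, stood in 15.3%, against 19.95% and 13.8%. Median GC content was 53.2%, against 56.8% and 52.0%. In these 3 measures the promoters near gaining regions lay closer to all promoters than to those near shared regions, whereas for CpG, the CACGTG E-box and the NFAT core, given next, they lay closer to those near shared regions.

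For the other motifs the same 3 shares, in the same order, were as follows. The AP-1 site stood in 7.31%, 5.71% and 6.87%, the NF-kB site in 1.33%, 1.46% and 1.40%, and the STAT site in 6.98%, 6.18% and 7.18%. The IRF site (a pair of GAAA runs with 2 free bases between) stood in 2.33%, 2.55% and 3.04%, the PU.1-type site (GAGGAAGT) in 1.99%, 2.503% and 2.44%, and the RUNX site (TGTGGTTT) in 2.33%, 1.35% and 1.57%. None of these sites of macrophage and inflammatory factors had a share that differed by more than a few percentage points between the sets. The C/EBP half-type site stood in 9.30%, 8.25% and 9.55%, and the full C/EBP site (TTGCGCAA) in 0%, 0.193% and 0.170%. The CACGTG E-box stood in 7.31%, 7.501% and 6.05%, the NFAT core in 16.9%, 16.5% and 18.7%, and the CRE-type site (TGACGTCA) in 0.997%, 2.302% and 1.62%. The antioxidant response element core (TGACNNNGC), which NRF2 binds, stood in 10.3%, 11.3% and 10.2%. The metal response element core (TGCGCNC), which MTF1 binds, stood in 13.9%, 17.4% and 12.6%. The CTCF core (CC, 3 free bases and AGGGGGC) stood in 0.664%, 1.80% and 1.20%, and its short form (AGGGGGC) in 10.96%, 12.4% and 9.29%. The MAF site with GC, which is TGC followed by the AP-1 site, stood in 0%, 0.305% and 0.355%, the nuclear receptor repeat (a pair of AGGTCA runs with 1 free base between) in 0%, 0.0241% and 0.037%, and CpG (CG) in 95.7%, 97.3% and 91.7%.

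By RefSeq gene type a microRNA gene was nearest to 8 of the regions, or 1.64%, against 1.45% of shared regions. A microRNA guides repression of mRNAs that pair with its seed, bases 2 to 8, shown in capitals. Of 9 nearest genes with a name that begins with Mir, 8 had mature sequences in RefSeq. There were 13 in all with 13 different seeds, so no seed was shared. The mature forms of 3 of these genes are shown, from the plus strand for mir-129b (chr2:94241378-94241399 for the 5p arm and chr2:94241420-94241442 for the 3p arm) and mir-3072 (chr12:109747893-109747914 and chr12:109747928-109747949), and from the minus strand for mir-3095 (chr4:58441023-58441045), in GRCm38.p6.
mmu-miR-129b-5p: gCUUUUUGggguaagggcuucc
mmu-miR-129b-3p: cAAGCCCAgaccgcaaaaagauu
mmu-miR-3072-5p: aGGGACCCcgagggagggcagg
mmu-miR-3072-3p: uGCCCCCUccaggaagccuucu
mmu-miR-3095-3p: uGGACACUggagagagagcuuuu

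Values below are reads per 1000000 effective reads (RPM), recovered from the deposited log2(RPM + 1). The region nearest Mir3095 had 14.9 and 13.1 RPM in the CuNZ@Gel libraries, against 2.16 and 1.55 RPM in the Gel libraries. The region nearest Mir129b had 17.6 and 19.0 RPM in CuNZ@Gel, against 4.84 and 4.27 RPM in Gel, and that nearest Mir3072 had 17.7 and 14.7 RPM in CuNZ@Gel, against 2.80 and 5.57 RPM in Gel. Both CuNZ@Gel values lay above both Gel values in each of these regions, as in all 487 gaining regions and in 27.1% of shared regions. The rule leaves little room for overlap, so nothing is read from this. The microRNA regions shown were chosen after their values were seen.

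Reads in regions numbered 7440244 and 10236012 in CuNZ@Gel replicates 1 and 2, against 18844143 and 17915331 in Gel replicates 1 and 2, so the CuNZ@Gel libraries were less deep. In the gaining regions the order was the reverse, with 82550 and 108797 reads in CuNZ@Gel, against 41940 and 38972 in Gel. Per unit of the background pileup recovered from the authors' peak folds, the CuNZ@Gel libraries held 6368903 and 8525111 reads in regions, against 18784614 and 18630608 in the Gel libraries. This signal over background moves with the groups, so it and the treatment cannot be told apart in these libraries. Regions nearest to 25 macrophage identity genes summed to 2218 and 2263 RPM in CuNZ@Gel, against 2866 and 2919 RPM in Gel, and 3 of those genes had no region. Fibroblast marker regions summed to 128 and 120 RPM in CuNZ@Gel, against 103 and 104 RPM in Gel, with 4 of 12 genes without a region, lymphocyte marker regions to 197 and 185 RPM, against 248 and 246 RPM, with 2 of 14 without one, and granulocyte and dendritic cell marker regions to 258 and 243 RPM, against 266 and 271 RPM, with 4 of 14 without one. Regions of genes of unrelated tissues summed to 239 and 235 RPM in CuNZ@Gel, against 193 and 196 RPM in Gel, with 9 of 14 genes without a region, so they were higher in CuNZ@Gel as the fibroblast ones were. For lymphocyte markers the median per gene went against the sum, with 7.34 and 5.95 RPM in CuNZ@Gel, against 5.89 and 5.20 RPM in Gel. Macrophage and fibroblast medians per gene went the way of their sums, and granulocyte and dendritic cell medians were close between the groups. The part of these marker regions in the results was not tested. Over all regions the deposited values correlated with a Pearson r of 0.961 between the CuNZ@Gel libraries and 0.986 between the Gel libraries, against 0.918 to 0.921 between groups; all points share the same regions.

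The gaining regions were of medium strength in CuNZ@Gel and weak in Gel. Their median deposited log2 value was 4.10 and 4.10 in CuNZ@Gel replicates 1 and 2, against 2.33 and 2.29 in Gel replicates 1 and 2, while the median of all shared regions was 4.12 and 4.16 in CuNZ@Gel, against 4.22 and 4.22 in Gel. In CuNZ@Gel they thus sat at the level of a typical shared region, and in Gel far below it. Median mean RPM was 16.4 in CuNZ@Gel and 3.96 in Gel, and the ratio of the group means had a median of 3.90, from 3.04 to 13.8; the highest ratio was that of the region near LOC630077, listed at 0 reads in Gel replicate 2 although a peak was called there. The counts behind a typical region were 133 and 182 reads in the CuNZ@Gel libraries, against 69 and 63 reads in the Gel libraries.

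**Figure D1:**
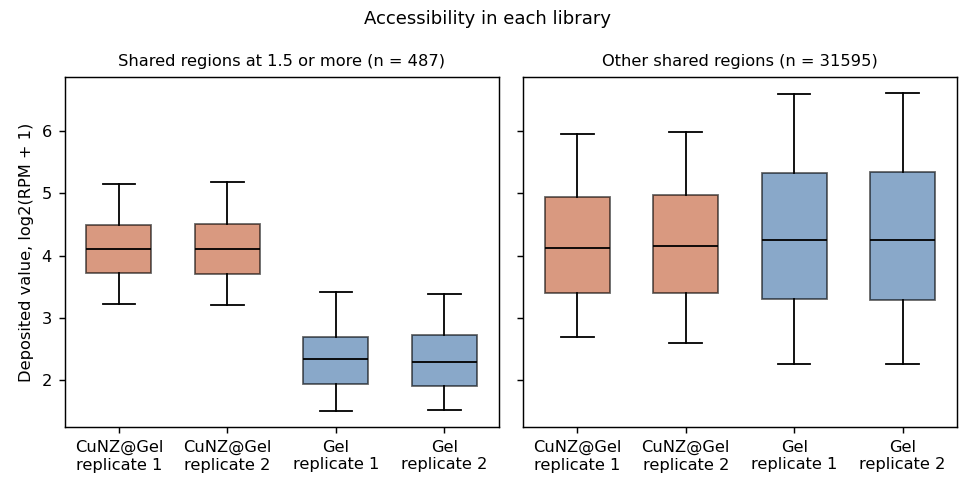
Deposited log2(RPM + 1) values in each library, CuNZ@Gel replicates left of Gel replicates, for the 487 gaining regions and for the other shared regions. The medians of the gaining regions are 4.10 and 4.10 in CuNZ@Gel and 2.33 and 2.29 in Gel, while those of the other shared regions lie between 4.12 and 4.26 in the 4 libraries.

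The log2 difference of the 487 regions had a median of 1.71 with quartiles of 1.59 and 1.89, and it reached 3.24. It was 2 or more in 86 regions, 2.5 or more in 8 and 3 or more in 1. Replicates were close by comparison. Replicate 1 minus replicate 2 had a median of -0.02 with an SD of 0.23 across the regions in CuNZ@Gel, and a median of 0.03 with an SD of 0.27 in Gel. The lower CuNZ@Gel value exceeded the higher Gel value in all 487 regions, by 0.97 or more and by a median of 1.52, and both CuNZ@Gel values lay above both Gel values in 27.1% of shared regions. A mean difference of 1.5 with replicates this close leaves little room for overlap, so nothing is read from that count, and the same holds wherever groups are said below not to overlap. limma with Benjamini-Hochberg adjustment called 486 of the 487 regions higher in CuNZ@Gel at an adjusted p under 0.05, and 1 was not tested because it has no gene name. Of all 77014 tested regions it called 21.2% higher and 21.9% lower, and of tested shared regions 18.6% higher; because the rule used this contrast, nothing is read from the count of 486.

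Just inside the threshold lay the regions nearest Riox1 and Edem1, both with a difference of 1.502, and Dclk3, with 1.5025. Just outside lay those nearest Gm42745, with 1.4985, and Pogk and Gm52743, both with 1.496. There was no gap in the values at the threshold.

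With the threshold applied to the replicate 1 libraries alone, 532 shared regions met it, and their median difference in the replicate 2 libraries was 1.6015, with 326 at 1.5 or more. With the replicate 2 libraries alone, 563 met it, and their median difference in the replicate 1 libraries was 1.58, with 326 at 1.5 or more. The 326 are the same regions both times, those at 1.5 or more in each pair, so the equal counts are not separate results. Of all shared regions 1.75% reached 1.5 in the replicate 2 libraries and 1.66% in the replicate 1 libraries. All these regions needed a peak in all 4 libraries, so neither pair was independent of the choice, and the values are a description of how far the replicates share the gain.

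Strong gains were concentrated among weaker regions. Ordered by mean log2 value in 10 equal parts, the shared regions held 113, 120 and 114 gaining regions in the 3 weakest parts, 73, 32 and 23 in the next, and 5, 2, 0 and 5 in the 4 strongest. The median difference of all shared regions also moved with level, from 0.39 in the weakest part to -0.69 in the strongest. After cyclic loess, which removes such a trend, the median of the gaining regions was 1.71 and their lowest value 1.36. limma then called 486 of them higher, among 18.8% of all tested regions, and again nothing is read from that count. The 5 in the strongest part were the 4 regions near LOC118568479 on unplaced sequence and the wider of the regions near Sfi1, described below.

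**Figure D2:**
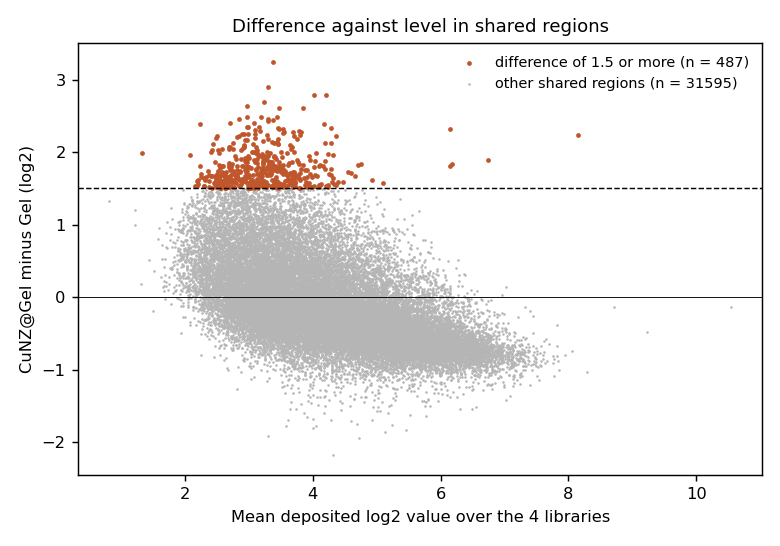
Difference of the deposited log2 values, CuNZ@Gel minus Gel, against the mean log2 value over the 4 libraries, for gaining regions and other shared regions. The gaining regions lie at 1.5 or above, mostly at low mean values, with a median mean value of 3.21 against 4.15 for all shared regions.

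The deposited peaks in these regions were also different in shape between the groups, although a peak was called in every library. The strongest peak of a region had a median width of 505 and 594 bases in CuNZ@Gel, against 351 and 338 bases in Gel, whereas over all shared regions it was 506 and 601 bases in CuNZ@Gel, against 693 and 697 bases in Gel. The authors' fold enrichment of these peaks had a median of 7.54 and 8.92 in CuNZ@Gel, against 6.30 and 6.12 in Gel, and of 6.68 and 7.78 in CuNZ@Gel, against 10.4 and 10.4 in Gel, over all shared regions. By these medians the CuNZ@Gel peaks of the gaining regions were the broader and more enriched, the reverse of the order over all shared regions. Gaining regions near Sfi1 and on unplaced sequence mostly went the other way in fold, as described below. These widths and folds come from the same reads as the values that chose the regions, so they are not separate evidence.

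Summits lay at much the same place in all libraries. Those of the CuNZ@Gel libraries lay a median of 38 bases apart and those of the Gel libraries 44 bases apart, while summits of a CuNZ@Gel and a Gel library lay 40 to 46 bases apart. The share within 50 bases was 62.2% between the CuNZ@Gel libraries, 54.2% between the Gel libraries and 55.0% to 58.3% between groups. The distances between groups were thus near that between replicates of Gel. Over all shared regions the summits lay 38 bases apart in CuNZ@Gel, 26 in Gel and 32 to 36 between groups. The merged regions had a median width of 668 bases, from 226 to 2382, against 831 bases for all shared regions, and 453 of the 487, or 93.0%, joined exactly 1 peak from each library.

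Gaining regions were spread over many genes and stood further apart from other open chromatin than shared regions in general. They had a median of 6 other regions within 50000 bases, against 8 for shared regions, and a median gap of 6498 bases to the nearest region, against 4995 bases. The nearest gene was protein coding for 54.2%, against 68.5% of shared regions, and a long non-coding RNA for 31.0%, against 22.6%. Predicted or unnamed genes were nearest to 210 of them, or 43.1%, against 29.0% of shared regions. These shares were not particular to the gaining regions: of the 36 shared regions at -1.5 or below, 50% were nearest a protein-coding gene and 44.4% a long non-coding RNA, and of the regions with peaks only in both CuNZ@Gel libraries, 59.8% and 27.0%. Of the 472 genes, 460 had 1 gaining region, 11 had 2 and 1 had 4. The gaining region was the gene's only region for 39 genes.

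The named genes with the largest differences were Rab18, Dusp7, Ttc27 and Pabpc1. Rab18, a small GTPase of membrane traffic and lipid droplets, was nearest to a region with 42.3 and 40.8 RPM in CuNZ@Gel, against 4.78 and 5.63 RPM in Gel, a difference of 2.78. Dusp7, a phosphatase that inactivates MAP kinases, was nearest to a region (chr9:106254974-106255763) with 18.1 and 19.0 RPM in CuNZ@Gel, against 2.16 and 2.10 RPM in Gel, a difference of 2.64. Replicates lay close in both regions and the groups did not overlap. Ttc27, a tetratricopeptide repeat protein, had 34.1 and 34.8 RPM in CuNZ@Gel, against 5.31 and 4.33 RPM in Gel, at chr17:75048534-75049610, a difference of 2.61. Pabpc1, the main cytoplasmic poly(A)-binding protein, had 26.8 and 26.2 RPM in CuNZ@Gel, against 3.97 and 3.10 RPM in Gel, at chr15:36631088-36631906, a difference of 2.61. The other 8 of the 12 largest differences were near predicted genes. The largest of all was near Gm34757 (chr14:71319755-71320411), with 29.7 and 32.5 RPM in CuNZ@Gel, against 2.274 and 2.54 RPM in Gel, a difference of 3.24.

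The other regions of these genes did not all move with the gaining one. Of the 8 others nearest Dusp7, limma called 2 higher, 1 lower and 5 neither. Of the 6 others nearest Rab18 it called 2 higher and 2 lower, and of the 13 others nearest Ttc27 it called 5 higher and 1 lower. Pabpc1 had 1 other region, with a difference of -0.93, which was called lower. Of all tested regions 21.2% were called higher and 21.9% lower, and nothing is read from counts this small.

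Genes of inflammation and cytokine sensing were nearest to a small number of gaining regions. Tnfaip3 encodes A20, a ubiquitin-editing enzyme that restrains NF-kB signalling. Its region (chr10:18819045-18819600) had 7.40 and 14.0 RPM in CuNZ@Gel, against 3.27 and 2.29 RPM in Gel, a difference of 1.59. CuNZ@Gel replicate 1 minus replicate 2 was -0.84 here, the lowest of all 487 regions, and both values were above both Gel libraries. It was 1 of 61 shared regions near 29 genes of inflammatory activation, whose median difference was -0.31. Over all shared regions 1.52% gained.

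Cytokine receptors had 2 gaining regions among 85 shared regions, whose median difference was -0.24. Over all shared regions 1.52% gained, so nothing is read from that count. Il6ra, the ligand-binding chain of the interleukin-6 receptor, had 24.5 and 30.04 RPM in CuNZ@Gel, against 8.34 and 7.06 RPM in Gel, at chr3:89803236-89804354, a difference of 1.70. Il7r, the alpha chain of the interleukin-7 receptor, had 14.9 and 15.9 RPM in CuNZ@Gel, against 5.25 and 3.65 RPM in Gel, at chr15:9555650-9556385, a difference of 1.6045. The groups did not overlap in either region. Of the 5 other regions nearest Il7r, limma called 4 higher and none lower, with a median difference of 1.01, where 21.2% of all tested regions were called higher and 21.9% lower. Of the 8 others nearest Il6ra it called 1 higher and 2 lower.

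Among pattern recognition and inflammasome genes, 1 of 74 shared regions gained, against 1.52% of all shared regions. The region lay near Naip1, a sensor that feeds the NLRC4 inflammasome. It had 12.98 and 13.7 RPM in CuNZ@Gel, against 2.86 and 3.78 RPM in Gel, at chr13:100576744-100576969. Of the 8 other regions nearest Naip1, 5 were called higher and none lower, against 21.2% and 21.9% of all tested regions. The Naip genes are close copies of each other, so reads may be shared among them and these values are uncertain.

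Of the shared regions of G-protein signalling regulators 3.57% gained, and of those of phosphodiesterase and cyclic AMP genes 4.05%. Over all shared regions the share was 1.52%. The list shares rest on 1 and 3 gaining regions, so nothing is read from them. Rgs1, which turns off G-protein signalling from chemokine receptors, was nearest to one of the strongest gaining regions (chr1:144114745-144115488), with 42.7 and 45.6 RPM in CuNZ@Gel, against 13.8 and 12.5 RPM in Gel, a difference of 1.67. It was 1 of 28 shared regions of G-protein signalling regulators, whose median difference was -0.19. Of the 17 other regions nearest Rgs1, limma called 6 higher, 4 lower and 7 neither, with a median difference of 0.285. The shares over all tested regions were 21.2% higher and 21.9% lower. Phosphodiesterase and cyclic AMP genes held 3 gaining regions of 74 shared, with a median difference of -0.04 over the 74. Pde2a, which degrades cyclic nucleotides, had 18.7 and 18.0 RPM in CuNZ@Gel, against 2.68 and 2.66 RPM in Gel, at chr7:101093419-101093927, a difference of 2.40. Pde4d, a cyclic AMP phosphodiesterase, had 17.5 and 15.8 RPM in CuNZ@Gel, against 4.14 and 6.38 RPM in Gel. Prkar2b, a regulatory subunit of protein kinase A, had 22.3 and 22.6 RPM in CuNZ@Gel, against 7.0 and 7.55 RPM in Gel. Groups were apart in all of these, and replicate spread was widest in Gel for Pde4d.

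**Figure D3:**
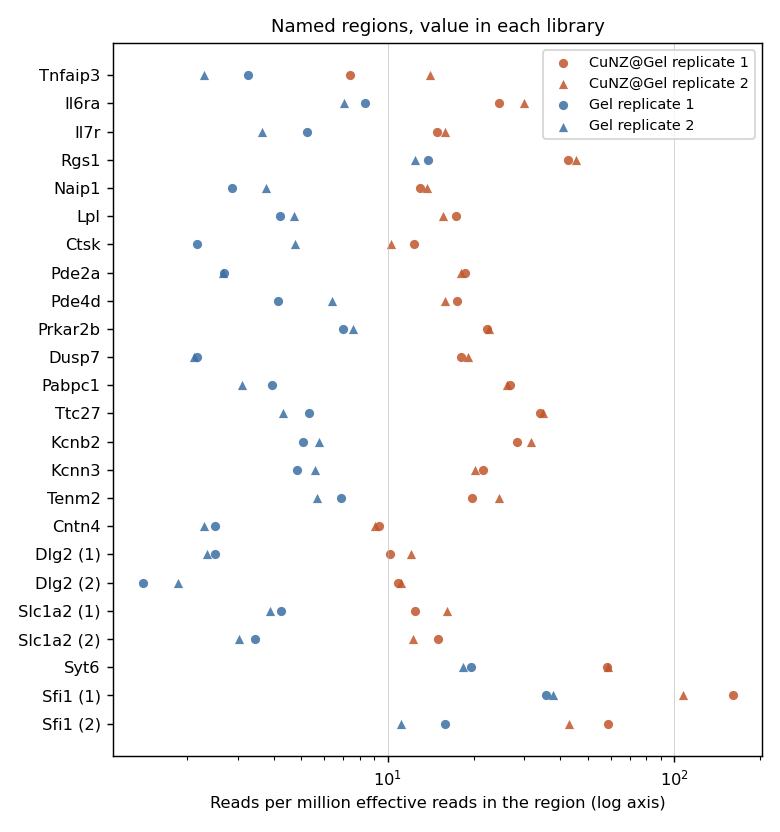
Reads per 1000000 effective reads in each library, on a log axis, for named gaining regions, with CuNZ@Gel and Gel replicates as separate points. In every region drawn both CuNZ@Gel points lie to the right of both Gel points, as for Rgs1 with 42.7 and 45.6 RPM in CuNZ@Gel and 13.8 and 12.5 RPM in Gel.

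Genes known mainly from neurons were nearest to several gaining regions. Synaptic and neuronal adhesion genes held 4 gaining regions of 30 shared, where 1.52% of all shared regions gained. Nothing is read from a count this small. Those 30 shared regions had a median difference of 0.75, against -0.21 over all shared regions. Dlg2, a synaptic scaffold protein, had 2 regions, 1 with 10.9 and 11.1 RPM in CuNZ@Gel, against 1.40 and 1.86 RPM in Gel, and 1 with 10.2 and 12.1 RPM in CuNZ@Gel, against 2.51 and 2.35 RPM in Gel. Tenm2, a teneurin adhesion protein, had 19.8 and 24.4 RPM in CuNZ@Gel, against 6.88 and 5.70 RPM in Gel. Cntn4, a contactin adhesion protein, had 9.34 and 9.06 RPM in CuNZ@Gel, against 2.51 and 2.29 RPM in Gel. Both CuNZ@Gel values lay above both Gel values in each of these regions. The list was drawn up with earlier results of these data known.

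Potassium and calcium channel genes held 2 gaining regions of 59 shared, where 1.52% of all shared regions gained, and nothing is read from that count. Kcnb2, a voltage-gated potassium channel, had 28.2 and 31.6 RPM in CuNZ@Gel, against 5.08 and 5.76 RPM in Gel, a difference of 2.2695. Kcnn3, a calcium-activated potassium channel, had 21.6 and 20.2 RPM in CuNZ@Gel, against 4.84 and 5.57 RPM in Gel. Slc1a2 and Syt6 belong to neither of these lists. Slc1a2, a glutamate transporter, had 2 gaining regions, with 15.03 and 12.3 RPM in CuNZ@Gel, against 3.44 and 3.03 RPM in Gel, in the stronger gain. Syt6, a synaptotagmin of vesicle fusion, was nearest to one of the strongest, with 58.1 and 58.8 RPM in CuNZ@Gel, against 19.6 and 18.3 RPM in Gel. The difference near Syt6 was 1.58.

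Of the lists for lipid handling and osteoclasts, each held 1 gaining region, where 1.52% of all shared regions gained. Lpl, lipoprotein lipase, had 17.3 and 15.6 RPM in CuNZ@Gel, against 4.198 and 4.70 RPM in Gel, at chr8:69360858-69361611, 1 of 70 shared regions of its list. Ctsk, the osteoclast protease cathepsin K, had 12.4 and 10.3 RPM in CuNZ@Gel, against 2.16 and 4.76 RPM in Gel, at chr3:95386151-95386703, 1 of 45 shared regions. Gel replicate 2 was the higher of the Gel libraries near Ctsk and still lay below both CuNZ@Gel libraries.

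Of 22 gene lists, 9 held a gaining region and 13 held none. Those with none were macrophage identity genes (0 of 73 shared regions), alternative activation (0 of 47), AP-1 factors (0 of 32), NRF2 targets (0 of 53), copper and metal handling (0 of 45), wound growth factors and matrix (0 of 51), adhesion and integrins (0 of 68), interferon response (0 of 29) and housekeeping genes (0 of 27). The same was so of the markers of fibroblasts (0 of 4), lymphocytes (0 of 8), granulocytes and dendritic cells (0 of 15) and unrelated tissues (0 of 7). At 1.52% of all shared regions, a list of this size would hold few gaining regions or none, so these counts say little about any list. The 16 gaining regions near listed genes are 16 of the 487, and the rest lay near genes outside the lists.

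Other gaining regions named by level or number were near Ehd4, a protein of endocytic recycling, with 40.3 and 45.4 RPM in CuNZ@Gel, against 13.1 and 11.7 RPM in Gel, and Lilrb4a, an inhibitory receptor of myeloid cells, with 22.3 and 22.0 RPM in CuNZ@Gel, against 5.13 and 7.12 RPM in Gel. The region near Lilrb4a was one of the 3 widest, with 2304 bases. Smndc1, a splicing factor, and Mad1l1, a spindle checkpoint protein, had 2 gaining regions each. Of the 15 other regions nearest Mad1l1, 8 were called higher and 1 lower, and of the 10 others nearest Smndc1, 1 was called higher and 4 lower, where 21.2% of all tested regions were called higher and 21.9% lower.

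Regions on unplaced sequence and near Sfi1 stood apart from the rest. Of 22 shared regions on unplaced sequence, 8 gained, or 36.4%, and 2 more gaining regions lay near Sfi1, a spindle pole protein, on chromosome 11. The strongest, near LOC118568479, had 749 and 506 RPM in CuNZ@Gel, against 126 and 133 RPM in Gel. The wider Sfi1 region (chr11:3134376-3136599) had 160 and 108 RPM in CuNZ@Gel, against 35.7 and 37.7 RPM in Gel. CuNZ@Gel replicate 1 lay above replicate 2 in all 10, by a median of 0.55 on the log2 scale, against a median of -0.02 in the other 477. The 14 shared regions on unplaced sequence that did not gain leaned the same way, with replicate 1 above replicate 2 in 12 and a median of 0.33. Unplaced sequence and Sfi1 may share reads with near-identical copies, so these values are uncertain. The authors' peak folds did not follow the gain here. In both Gel libraries they exceeded both CuNZ@Gel folds in all 10 except the strongest and the region without a gene name. In those the order was mixed. At the wider Sfi1 region the folds were 2.51 and 2.74 in CuNZ@Gel, against 3.53 and 4.61 in Gel. Whether values and peaks are rightly paired on unplaced sequence was not checked. The group was singled out after its values were seen. Without them 477 gaining regions remain, with a median difference of 1.70.

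By chromosome the share of shared regions that gained was highest on chromosomes 3 (39 of 1580, 2.47%), 18 (2.35%) and 12 (2.22%), and lowest on chromosomes 17 (0.982%) and X (2 of 594, 0.337%), apart from Y with 0 of 3. The X regions lay near Syn1 and Gm4995, and the median difference of all shared regions on X was -0.46. Neighbouring gaining regions were a median of 2.56e+06 bases apart, and 29 neighbouring pairs lay within 100000 bases. Runs of gaining regions within 100000 bases held at most 3, and the tightest of the runs of 3 were 2 on unplaced sequence, near LOC118568479, LOC630077 and Pisd-ps3. The next was on chromosome 12 at chr12:8855231-8882149, near Sdc1, which encodes the proteoglycan syndecan-1, and Gm33418.

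Regions around the gaining ones leaned the same way, and less so with distance. Regions that did not meet the rule, some of which gained by more than 1.5 without a peak in all 4 libraries, had a median difference of 0.51 within 5000 bases of a gaining region, 0.23 from 5000 to 20000 bases, 0.11 from 20000 to 50000 and 0.04 from 50000 to 100000. Around other shared regions the same medians were -0.15, -0.05, -0.04 and -0.02. After cyclic loess, which removes the trend with level, the contrast was smaller. The medians were then 0.35, 0.17, 0.07 and 0.007 around gaining regions, and -0.07, -0.05, -0.05 and -0.05 around other shared regions. Of the 172 tested within 5000 bases of a gaining region, limma called 46.5% higher and 3.49% lower, while around other shared regions it called 19.3% higher and 31.9% lower. At 50000 to 100000 bases the shares called higher were 22.6% and 19.9%. Other regions of the same genes behaved alike, with 33.1% of 2290 called higher and 13.7% lower, against 20.3% and 22.3% for regions of all other genes. Regions near each other share local background, and no test was made of these shares.

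**Figure D4:**
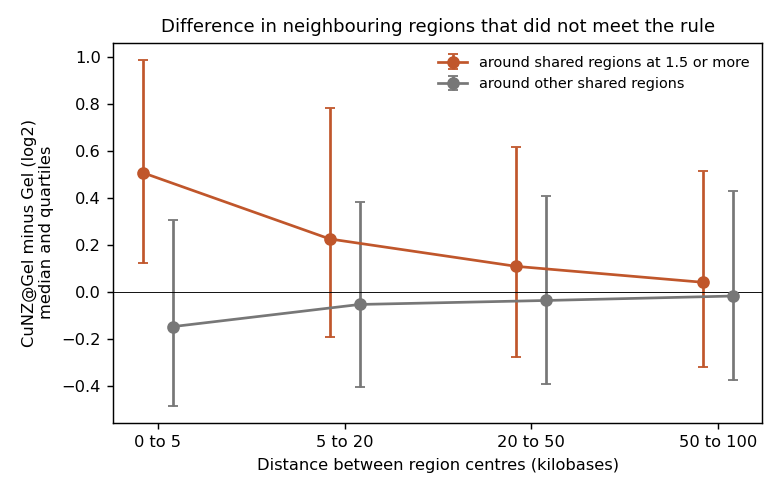
Median and quartiles of the log2 difference, CuNZ@Gel minus Gel, in regions that did not meet the rule, by distance from a gaining region or from another shared region. Around gaining regions the median falls with distance, with 0.51 within 5000 bases and 0.04 from 50000 to 100000 bases, and around other shared regions it stays between -0.15 and -0.02.

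Regions with peaks only in the 2 CuNZ@Gel libraries were the set nearest in kind. There were 1849 of them, with a median difference of 1.51, a median mean RPM of 6.60 in CuNZ@Gel and 1.48 in Gel, and a median width of 368 bases. They were therefore narrower and weaker than the 487, whose medians were 668 bases, 16.4 RPM in CuNZ@Gel and 3.96 RPM in Gel. The 36 shared regions at -1.5 or below were stronger in Gel, with a median of 13.2 RPM in CuNZ@Gel and 48.6 RPM in Gel.

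The size of the gain depended on the scaling. The median difference of the 487 regions was 1.96 when scaled to total reads in regions, 1.73 with median-of-ratios factors, 1.71 with cyclic loess and 0.80 on the scale of the background pileup. On that last scale 17 of the 487 reached 1.5 and 467 were called higher by limma, among 4.85% of all tested regions, and all 487 lay above 0. That scale shifted the median difference of all shared regions to -1.20, against -0.22 as deposited, and total reads shifted it to 0.05. A scaling factor per library moves the gaining and the other regions by much the same amount, so the distance between their medians is set mainly by the rule.

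**Figure D5:**
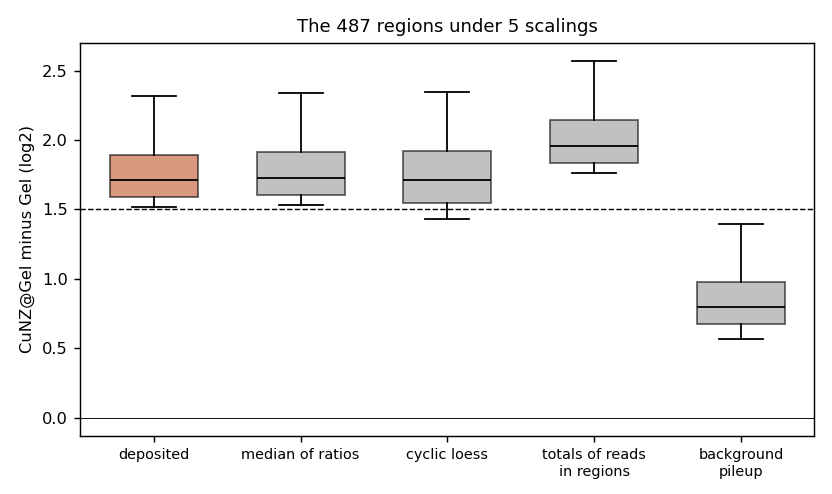
Log2 difference, CuNZ@Gel minus Gel, of the 487 gaining regions under 5 scalings. The medians are 1.71 as deposited, 1.96 for totals, 1.73 for median-of-ratios, 1.71 for cyclic loess and 0.80 on the background pileup scale, and every region lies above 0 in each.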

How the data were processed

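ATAC-seq libraries of RAW264.7 cells, 2 for CuNZ@Gel and 2 for Gel, were grouped by their titles. The submitters' processing notes name build GRCm39 and, with no role or order, MACS2 2.2.8, Picard 2.27.5, SAMtools 1.17, Bowtie2 2.3.4.3 and fastp 0.23.1. The authors deposited log2 values for 80929 regions per library, read as log2(RPM + 1) because after reversal 100% of low values lay within 0.1 of a whole read. Each library also has a deposited list of its own peaks with a fold ratio over background, −log10 p-values and q-values, and an integer score. These peak values were used only to describe or filter peaks. The lists, merged with a gap of at most 1 base, match the value tables in number and were taken to be in the same order. Of 77103 placed regions whose gene has a chromosome in RefSeq, 77101 lay on that chromosome. On unplaced sequence the order was not checked, and some values and peaks disagree there. Coordinates are counted from 1. The background pileup was recovered from steps of the fold values, on which 8.62% and 11.2% of low folds fell in CuNZ@Gel and 39.7% and 34.5% in Gel; it is an estimate.

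limma 3.58.1 (R 4.3.3) with a trend was fitted to the log2 values of the 77014 regions with 10 reads at the median depth in at least 2 libraries and 15 in all; 4 rows without a gene name stayed out. Calls are two-sided at a Benjamini-Hochberg adjusted p under 0.05. The script was tested on simulated data. An exact permutation of 2 against 2 libraries cannot go below 0.333. Same-numbered libraries deviated together with a correlation of 0.0146 and the labels tie the numbers to no batch, so they were not paired.

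The regions and gene lists were chosen with earlier results of these data known. Named are the 12 largest differences, the 12 highest levels, the 5 genes with most regions, members of the lists (at most 6 a list), the 2 tightest runs, 3 regions on each side of the threshold and the 3 widest, skipping predicted genes except at the threshold. The microRNA genes, Sdc1, Gm33418, Syn1, Gm4995, LOC118568479, LOC630077 and Pisd-ps3 were named after their values were seen. Of 472 gene names 440 matched RefSeq. Alternatives were other scalings, pseudocounts, filters, peak thresholds, left-out libraries, a replicate block and voom.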

Additional observations from a re-analysis of the deposited data

How the results depend on the processing

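The number of shared regions at 1.5 or more, 487 as deposited, was 953 when scaled to total reads in regions, 17 on the background pileup scale, 821 with a pseudocount of 0.1, 158 with a pseudocount of 3 and 310 with peaks at a −log10 q of at least 5. It was 507 with median-of-ratios factors, 488 with cyclic loess, and 502 to 540 with a library left out. The 488 were not the same set: they held 420 of the 487 gaining regions and 68 other shared regions. Regions called higher by limma, 16314 as deposited, were 3738 on the background pileup scale and 11530 to 14953 with a library left out. Regions called lower, 16855 as deposited, were 9153 with total reads, 10703 with cyclic loess, 46699 on the background pileup scale and 12098 to 16608 with a library left out. The cause was not tested. With a library left out, the lone library of its group is assumed to vary like the others. Of the 487 gaining regions, 486 were called higher under each alternative that kept all 4 libraries, 467 on the background pileup scale excepted. Of all tested regions 21.2% were called higher as deposited and 4.85% on the background pileup scale. The rule used the same contrast, so nothing is read from the counts of gaining regions called. Of 31 named regions none reversed, and 4 lost their call, all on the background pileup scale: those near Syt6, Prkar2b, 1 of the Smndc1 regions and 1 of the Mad1l1 regions. These were chosen by the same contrast too, so the lack of a reversal says nothing about them. The median width of 668 bases was 447 bases when the authors' own peaks were measured. With a replicate block, 16697 regions were called higher, 17273 lower, and 486 of the gaining regions higher; same-numbered libraries share only a number. Windows of other sizes for GC content and motifs in the regions were not run, since no genome of build GRCm39 was used here. Depth limits the weak Gel values most, at a median of 63 to 69 reads a region.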

Other observations

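The region near LOC630077 on unplaced sequence was listed at 0 reads in Gel replicate 2, although the authors' peak list has a peak there in that library with a −log10 q of 58.6. The same region had 38 and 39 reads in CuNZ@Gel, against 10 reads in Gel replicate 1. Values and peaks also disagreed in other shared regions on unplaced sequence. A region with no gene name had 23 and 12 reads in CuNZ@Gel, against 0 and 4 in Gel. Its peaks had a −log10 q of 1259 or more in every library. Another, near LOC118568479, had 12269 or more reads in every library, with a −log10 q of 22.3 or less. Neither of these met the rule. All were noticed after their values were seen.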
